A study of Macaca fascicularis with 6 samples.

Results

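The genes described here are 7 proteases that degrade cartilage matrix, MMP1, MMP2, MMP3, MMP13, MMP14, ADAMTS4 and ADAMTS5, and 3 tissue inhibitors of metalloproteinases, TIMP1, TIMP2 and TIMP3. They were chosen by name as a family, with earlier results of these data known but with no threshold on their values, and all 10 were listed in both deposited single-cell matrices, which hold 13950 and 14020 genes. The data are TAS-Seq transcriptomes, in which cDNA captured on BD Rhapsody beads is amplified whole and read counts are given per gene and cell, from cynomolgus monkeys and their iPS cells. Matrix metalloproteinases (MMPs) are zinc enzymes that are made as inactive precursors and cut collagens, proteoglycans and other matrix proteins outside the cell. ADAMTS4 and ADAMTS5 are the aggrecanases, which cut aggrecan, the main proteoglycan of cartilage. TIMPs bind the active site of these enzymes, and cartilage is known to lose matrix where proteases outweigh their inhibitors.

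The question put to the data was how much of each protease and inhibitor transcript was present in the source cells, in the cartilage organoid before and after transplantation, in native cartilage and in the tissue of unfilled defects. Undifferentiated iPS cells of an allogeneic EGFP line (cyiPSC) and the cartilage organoids made from them (pre-transplant cyiPS-Cart) were pooled after hashtag labelling in 1 library. Organoids recovered 4 months after they were placed in chondral defects of the knee (post-transplant cyiPS-Cart) had a library of their own. Another library, also taken 4 months after surgery, was shared by undamaged articular cartilage (cyAC) and by fibrous tissue grown in chondral defects that were left empty (cyFT). The animals were 3 to 4 years old and, by the labels, wild type. The post-transplant library also carries the wild-type label of the recipients, although the study describes its cells as coming from the EGFP line. Recovered sites were pooled within a library. The organoid and cartilage tissues were taken apart with Liberase, a collagenase mixture, at 37 degrees for hours, and the digestion medium of pre-transplant cyiPS-Cart also held TGF-β1, BMP2 and GDF5. Whether digestion moved these transcripts was not tested.

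The first matrix held 2500 cyiPSC and 3527 pre-transplant cells, with a median of 143075 and 59249 reads per cell. The second matrix held 320 cells of each tissue, in the order of pre-transplant and post-transplant cyiPS-Cart, then cyAC and cyFT, with medians of 58413.5, 80335.5, 29699 and 27499.5 reads. The first matrix shared 300 of the 320 cells from before transplantation, with the same counts of all members. No cell barcode was shared between libraries of the second matrix. All 8 chondrocyte markers had reads in every sample, and cells with reads of at least 3 of them made up 96.3% to 100% of each tissue and 2.44% of cyiPSC. At least 3 of 6 fibroblast markers had reads in 73.4% of pre-transplant, 58.75% of post-transplant, 39.7% of cyAC and 69.7% of cyFT cells of the second matrix. In cyiPSC that share was 81.2%. Such shares do not name the type of a cell. The 7 listed immune markers summed to 8.88 to 33.6 reads per 1000000 in the other 3 samples of the second matrix and to 546 in cyFT, where 16 of 320 cells (5%) had at least 3 of them and CD3E, a T cell marker, was at 0.

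Levels are counts per 1000000 reads (CPM) of the reads summed over the cells of a sample, with exact Poisson 95% intervals in brackets. Each condition was 1 sample, so there was no test between conditions, and intervals cover counting error only. Transcript lengths were not used here, so levels are compared between samples and not between genes. A member is called higher or lower where the log2 ratio of CPM + 1 is past 2-fold, among genes that reach 10 CPM in either sample. A gene that reaches 10 CPM in only 1 of the samples can only be called higher in that sample. MMP13, ADAMTS4 and ADAMTS5 stayed under that limit in every comparison, which leaves 7 of 10 members to be called. Differences across the 3 libraries cannot be told apart from differences between libraries. The comparisons of pre-transplant cyiPS-Cart with cyiPSC and of cyFT with cyAC each lie within 1 library.

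MMP3, or stromelysin-1, cuts proteoglycans, fibronectin and minor collagens and activates other MMPs. It was at 7.18 CPM [6.93 to 7.44] in cyiPSC and 355 CPM [353 to 358] in pre-transplant cyiPS-Cart of the first matrix. In the second matrix it was at 427 CPM [418.4 to 436.03] in pre-transplant cyiPS-Cart, 299 CPM [293 to 305] in post-transplant cyiPS-Cart, 1441 CPM [1420 to 1463] in cyAC and 439 CPM [427 to 451] in cyFT. cyAC was the highest sample, post-transplant cyiPS-Cart the lowest tissue, and the intervals of cyFT and pre-transplant cyiPS-Cart overlapped.

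The MMP3 reads were held by few cells. The tenth of cells with the most MMP3 reads held 88.9% of them before transplantation, 83.7% in cyAC, 73.1% in cyFT and 61.4% after transplantation. In cyAC the median cell had 138 CPM, the 90th percentile 3606 CPM and the highest cell 74800 CPM. Cells with 100 or more MMP3 reads were 10% of cyAC, 8.75% of post-transplant, 7.81% of pre-transplant and 3.13% of cyFT cells. This cutoff was not set for depth, which differed between the samples. By CPM, the 90th percentile was 945 in post-transplant, 1269 in pre-transplant and 838 in cyFT cells.

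At least 1 MMP3 read was present in 92.2% of cyAC and 82.8% of cyFT cells, against 41.3% of the cells both before and after transplantation. These shares are not on one footing, since the lowest MMP3 count above 0 was 10 reads in the post-transplant library and 1 read in the others, after a background correction by the authors. In cyFT, 14 of the 16 cells with immune markers (87.5%) also had MMP3 reads, at 101.3 CPM against 465 CPM in the other 304 cells. MMP3 with 10 or more reads was present in 25% of these 16 cells (median depth 46085.5 reads) and in 25.3% of the other cyFT cells (median depth 26513.5 reads), so the share of cyFT cells was not above that of cells of another type and is not read as a share of expressing cells. cyAC held 2 cells with immune markers, too few to give a background for its share. In the library of cyiPSC and pre-transplant cyiPS-Cart, cyiPSC served as the cell that should lack MMP3. MMP3 reads were present in 36.1% of cyiPSC and 38.8% of pre-transplant cells, which became 11% and 32.4% after every cell was thinned to 30967 reads.

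**Figure D1:**
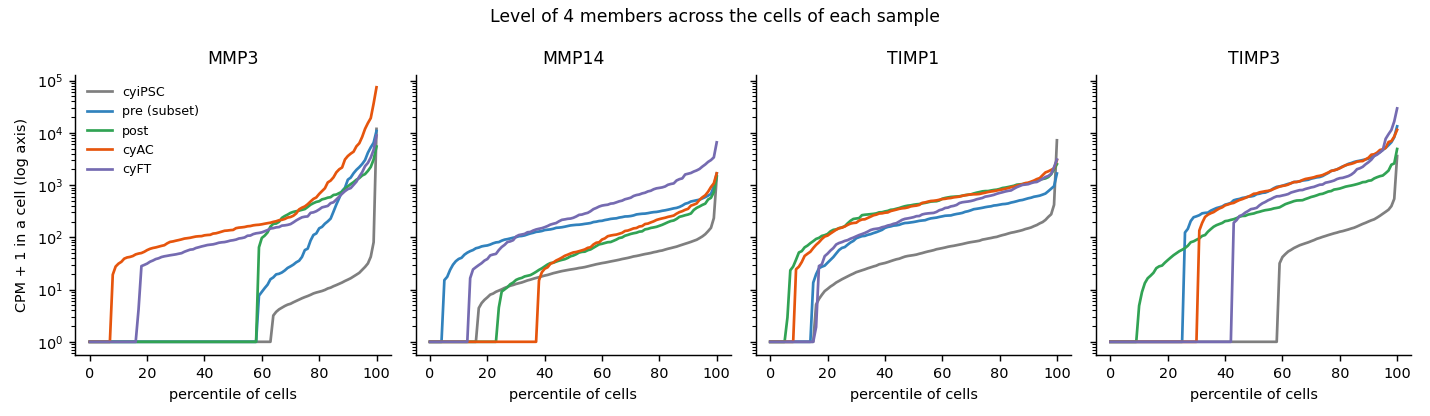
The curves give the level of MMP3, MMP14, TIMP1 and TIMP3 in single cells (CPM + 1, log axis) against the percentile of cells for cyiPSC and the 4 samples of the second matrix. MMP3 in cyAC rises from 138 CPM in the median cell to 3606 CPM at the 90th percentile.

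MMP1 and MMP13 are interstitial collagenases, which cut the triple helix of fibrillar collagen, and MMP13 is known for its action on type II collagen. MMP1 was at 2.08 CPM in cyiPSC and 46.2 CPM in pre-transplant cyiPS-Cart of the first matrix. In the second matrix it was at 49.3 CPM [46.3 to 52.3] in pre-transplant and 15.6 CPM [14.3 to 17.1] in post-transplant cyiPS-Cart, 10.1 CPM [8.34 to 12.0] in cyAC and 27.1 CPM [24.1 to 30.3] in cyFT. Pre-transplant cyiPS-Cart was the highest sample. The cyAC and cyFT values came from 1 cell each, with 119 and 300 reads, and no lower MMP1 count above 0 was left in that library. In pre-transplant and post-transplant cyiPS-Cart, 12.5% and 6.56% of cells had MMP1 reads, but the lowest count above 0 was 1 read before and 9 reads after transplantation. At 10 or more reads the shares were 5.63% and 5.94%. In cyiPSC, 9.12% of cells had an MMP1 read and 0.56% had 10 or more.

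MMP13 was at 1.56 CPM [1.44 to 1.69] in cyiPSC and 8.27 CPM [7.91 to 8.64] in pre-transplant cyiPS-Cart of the first matrix. It was at 9.02 CPM [7.79 to 10.4] before and 2.55 CPM [2.01 to 3.19] after transplantation, and at 2.80 CPM [1.90 to 3.97] in cyFT, where the last 2 overlapped, and cyAC held a single MMP13 read. The ratio of post-transplant cyiPS-Cart to cyAC was 30.1, with a counting interval from 5.24 to 1204 that this single read sets. The cyAC read lay in 1 of its 2 cells with immune markers, and 1 cell held 48.7% of the post-transplant reads. The log2 ratio of CPM + 1 was 1.71 with all cells. Without the 3 cells with most MMP13 reads in each sample it was 0.86, with no read left in cyAC. Thinned to equal depth, 4.43% of cyiPSC and 5.20% of pre-transplant cells had MMP13 reads, so the share in pre-transplant cells was close to that in cyiPSC. Counts of 10 or more were in 0.08% of cyiPSC and 1.62% of pre-transplant cells.

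MMP1 cells of pre-transplant cyiPS-Cart tended to hold MMP3 as well. Of 383 MMP1 cells in the first matrix, 58.5% had MMP3 reads, against 38.8% of all 3527 cells, at median depths of 65173 reads in MMP1 cells and 58485.5 in the rest. The tenth of these cells with the most MMP3 per read had 202 CPM of MMP1 and 22.5 CPM of MMP13, against 28.6 and 6.66 CPM in the rest, at similar median depths of 58702 and 59282 reads. In the RefSeq gene order of another build of this genome, MMP1, MMP3 and MMP13 lie in 1 cluster with MMP7, MMP20, MMP27, MMP8, MMP10 and MMP12, and MMP1 and MMP3 are direct neighbours.

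MMP14 is a membrane-bound collagenase that activates the precursor of MMP2, a gelatinase that cuts denatured collagen, and TIMP2 takes part in that activation. MMP14 was at 33.3 CPM [32.7 to 33.8] in cyiPSC and 229 CPM [228 to 231] in pre-transplant cyiPS-Cart of the first matrix. In the second matrix it was at 210 CPM [204 to 217] in pre-transplant and 106 CPM [102 to 110] in post-transplant cyiPS-Cart, 134 CPM [128 to 141] in cyAC and 453 CPM [440 to 466] in cyFT. cyFT stood highest and post-transplant cyiPS-Cart lowest among the tissues.

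MMP2 had the same order at lower counts. It was at 5.45 CPM in cyiPSC and 92.7 CPM in pre-transplant cyiPS-Cart of the first matrix. It was at 97.0 CPM [92.9 to 101.3] in pre-transplant and 54.7 CPM [52.0 to 57.4] in post-transplant cyiPS-Cart, 67.4 CPM [62.8 to 72.2] in cyAC and 181 CPM [173 to 189] in cyFT. Thinned to 12191 reads per cell, MMP2 was found in 51.1%, 19.4%, 22.7% and 41.3% of the pre-transplant, post-transplant, cyAC and cyFT cells, and MMP14 in 79.9%, 48.1%, 50% and 78.8%. Cells with at least 3 reads after thinning were 15.99%, 10%, 10.7% and 28.8% for MMP2 and 35.7%, 18.1%, 22.4% and 54.5% for MMP14 in the same order. By both shares the 2 genes were lower in post-transplant cyiPS-Cart and cyAC than in the other samples, although at 3 reads their exact intervals for MMP2 overlapped that of pre-transplant cyiPS-Cart. cyFT led by CPM and at 3 reads but not at 1 read. Of the 16 cyFT cells with immune markers, 87.5% had MMP14 reads, against 86.5% of the other cyFT cells, and 18.75% had MMP2 reads, against 56.3% of the others. At 10 or more reads the MMP14 shares were 62.5% and 42.4%, at median depths of 46085.5 and 26513.5 reads. The levels were 446 and 454 CPM. The MMP14 share of cyFT was thus not above that of cells of another type. Whether the cells with immune markers express MMP14 themselves was not tested.

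The aggrecanases were close to the limit of detection. ADAMTS4 had 142 reads (0.342 CPM) in cyiPSC and 23 reads (0.0957 CPM) in 3527 pre-transplant cells, and 0 reads in all 4 samples of the second matrix. A count of 0 in 320 cells allows a share of cells with a read of up to 0.938%, taken as 3 of 320 cells, or up to 1.15% by the exact interval. ADAMTS5 was at 0.233 CPM in cyiPSC and 0.258 CPM in pre-transplant cyiPS-Cart of the first matrix. In the second matrix it had 1 read in pre-transplant cyiPS-Cart and stood at 1.51 CPM [1.10 to 2.02] in post-transplant cyiPS-Cart, 2.88 CPM [1.99 to 4.02] in cyAC and 5.50 CPM [4.21 to 7.07] in cyFT. cyFT was the highest. Of these reads, 1 cell held 48.9% in post-transplant cyiPS-Cart, 50% in cyAC and 32.8% in cyFT. Without the 3 cells with most ADAMTS5 reads in each sample, the log2 ratio of post-transplant cyiPS-Cart over cyAC was -0.0042, so the order of post-transplant cyiPS-Cart and cyAC rested on single cells. It was 1.08 for cyFT over cyAC and -1.08 for post-transplant cyiPS-Cart over cyFT. The reads lay in 8, 6 and 11 cells of these 3 samples, at shares of 2.50%, 1.88% and 3.44%.

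TIMP1 is a soluble inhibitor of most secreted MMPs and a weak inhibitor of MMP14. It was at 70.9 CPM [70.1 to 71.7] in cyiPSC and 261 CPM [259 to 263] in pre-transplant cyiPS-Cart of the first matrix. In the second matrix it was at 254 CPM [247 to 261] in pre-transplant and 521 CPM [512 to 529] in post-transplant cyiPS-Cart, 560 CPM [547 to 574] in cyAC and 388 CPM [377 to 400] in cyFT. TIMP1 was the only member, besides ADAMTS5 with its few reads, that was higher in post-transplant than in pre-transplant cyiPS-Cart.

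TIMP2 was at 99.6 CPM in cyiPSC and 1322 CPM in pre-transplant cyiPS-Cart of the first matrix. It was at 1313 CPM [1297 to 1328] in pre-transplant and 523 CPM [515 to 531] in post-transplant cyiPS-Cart, 842 CPM [826 to 859] in cyAC and 1648 CPM [1624 to 1672] in cyFT. TIMP2 reads were in 93.8% to 99.4% of the cells of these samples, and also in 94.1% of cyiPSC and 15 of the 16 cyFT cells with immune markers, so a single read did not separate the samples. Cells with at least 3 reads after thinning were 97.5% of pre-transplant, 67.5% of post-transplant, 88.0% of cyAC and 96.5% of cyFT cells, with post-transplant cyiPS-Cart lowest as by CPM.

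TIMP3 binds to the matrix and is the TIMP that inhibits the aggrecanases. It was at 74.6 CPM in cyiPSC and 1360 CPM in pre-transplant cyiPS-Cart of the first matrix. It was at 1439 CPM [1423 to 1455] in pre-transplant and 537 CPM [528 to 545] in post-transplant cyiPS-Cart, 1364.5 CPM [1344 to 1386] in cyAC and 1503 CPM [1481 to 1526] in cyFT. Post-transplant cyiPS-Cart stood apart below the other 3 tissues. It had the most cells with TIMP3 reads (90%, against 57.8% to 74.7%), but counts went down to 1 read in that library and not below 7 to 11 reads in the others. Cells with 10 or more TIMP3 reads were 66.6% of post-transplant, 74.7% of pre-transplant, 64.4% of cyAC and 51.3% of cyFT cells at their own depths. Thinned to equal depth, cells with at least 3 TIMP3 reads were 55% of post-transplant, 68.7% of pre-transplant, 65.6% of cyAC and 57.3% of cyFT cells. By the RefSeq models TIMP1 lies within SYN1 and TIMP3 within SYN3, and TIMP2 and MMP14 also overlap another gene, so reads of these genes could be shared where the strand was not used.

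**Figure D2:**
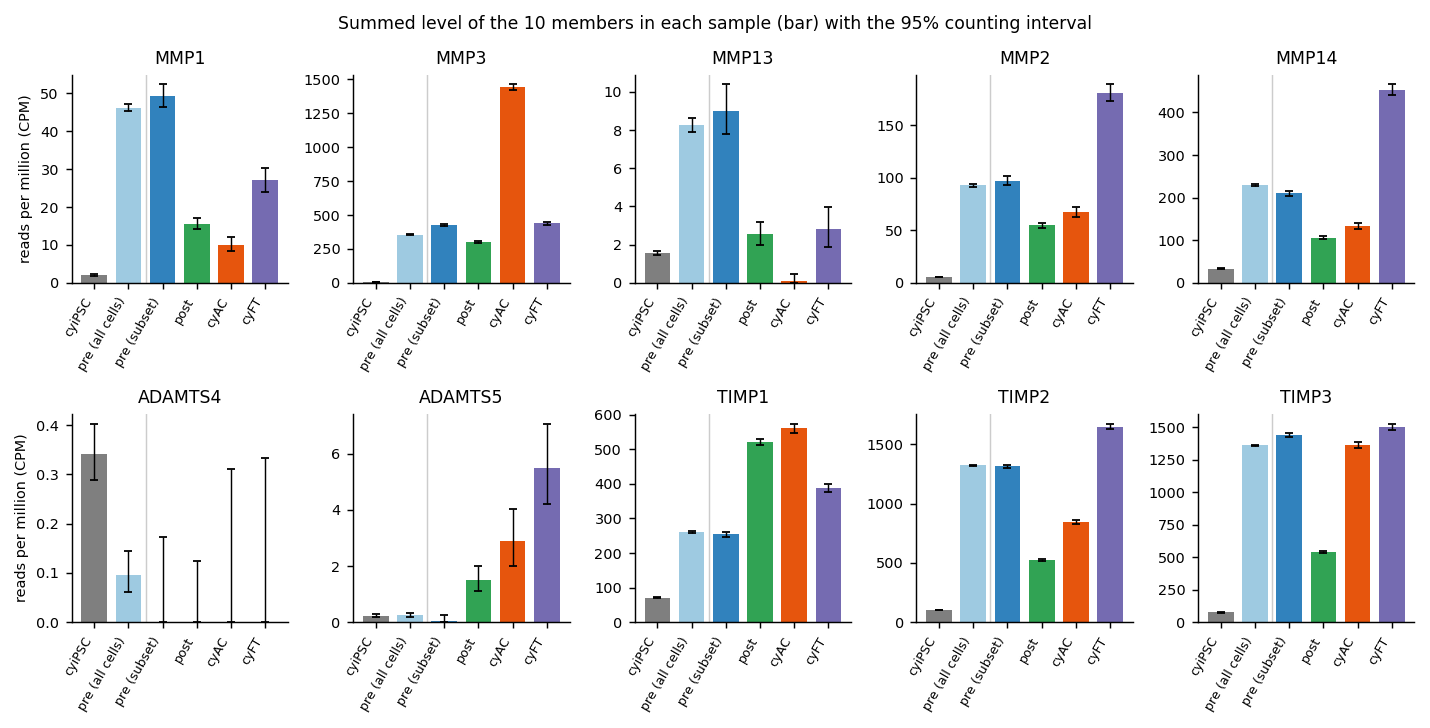
Bars give the summed CPM of each member in cyiPSC and all pre-transplant cells (the first matrix) and in the 4 samples of 320 cells (the second matrix), with 95% counting intervals as error bars. MMP3 is highest in cyAC (1441 CPM), MMP2 and MMP14 are highest in cyFT (181 and 453 CPM), and TIMP2 and TIMP3 are lowest among the tissues in post-transplant cyiPS-Cart (523 and 537 CPM).

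Between cyiPSC and pre-transplant cyiPS-Cart, all 7 members that could be called were higher in the organoid, against 16.5% of 8576 genes called higher. None was lower, against 37.4% of genes. MMP1, MMP2 and MMP3 reached 10 CPM only in pre-transplant cyiPS-Cart, so the filter fixed their direction and they could not be called lower. The count of 7 and the median over the members include these genes. MMP14, TIMP1, TIMP2 and TIMP3 were past 10 CPM in both samples. The log2 ratio was 5.44 for MMP3, 3.94 for MMP1, 3.86 for MMP2, 2.75 for MMP14, 3.72 for TIMP2, 4.17 for TIMP3 and 1.87 for TIMP1, which was the smallest of the 7. The median log2 ratio was 3.86 over the 7 members and -0.61 over all genes tested. As ratios of CPM with nothing added, MMP3 was 49.5-fold higher (interval 47.7 to 51.3) and TIMP1 3.69-fold higher (interval 3.64 to 3.74). The size for MMP3 depended on how cells were weighted. A single cyiPSC held 10.2% of the MMP3 reads of cyiPSC, and by the mean of per-cell CPM the levels were 17.1 and 345 CPM, at a log2 ratio of 4.26.

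Between pre-transplant and post-transplant cyiPS-Cart, 1 of 7 members was called higher after transplantation, TIMP1 at a log2 ratio of 1.03, against 8.92% of 7587 genes. MMP1 (-1.59), TIMP2 (-1.33) and TIMP3 (-1.42) were called lower, against 18.5% of genes. MMP14 stood just inside the limit at -0.99, and TIMP1 just outside it. MMP2 was at -0.82 and MMP3 at -0.51, where the median of all genes was -0.25. Against all 3527 pre-transplant cells, TIMP1 was at 0.99 and no longer past the limit, while MMP14 was at -1.11 and past it. Without the 3 cells with most MMP1 reads in each sample, MMP1 was at -0.98. The median mitochondrial share was 5.24% of reads in pre-transplant and 1.68% in post-transplant cells, and its part in these differences was tested only by leaving those reads out, where TIMP1 was at 0.98 and MMP14 at -1.04.

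Between cyAC and cyFT, which shared a library, MMP14 (1.75), MMP2 (1.41) and MMP1 (1.34) were called higher in cyFT, 3 of 7 members against 12.2% of 7900 genes. MMP3 was called lower in cyFT at -1.71, against 3.92% of genes. TIMP2 stood just inside the limit at 0.97, TIMP1 was at -0.53 and TIMP3 at 0.14, and the median of all genes was 0.19. MMP14 was 3.38-fold higher in cyFT (interval 3.19 to 3.58) and MMP3 3.28-fold lower (interval 3.18 to 3.39). The MMP1 call rested on the 1 cell of each sample named above, and without those cells no MMP1 read was left. Without the cells with immune markers, MMP14 was at 1.75, MMP2 at 1.49 and MMP3 at -1.64, and TIMP2 at 1.04 was past the limit. The 16 cells with immune markers held 7.01% of the MMP14 reads of cyFT and 1.00% of its MMP2 reads.

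Post-transplant cyiPS-Cart was also set beside cyAC and cyFT. These comparisons and the previous ones share samples, so they are not independent. Against cyAC, 0 of 7 members were called higher (10.7% of 7621 genes were) and 2 were called lower (15.8% of genes), MMP3 at -2.27 and TIMP3 at -1.34. TIMP1, at -0.11, was close to its level in cyAC. Against cyFT, 0 of 7 were called higher (6.65% of 7981 genes were) and 4 were called lower (21.8% of genes), MMP14 at -2.09, MMP2 at -1.71, TIMP2 at -1.65 and TIMP3 at -1.48. TIMP1 was at 0.42 there. MMP1 was at 0.59 over cyAC and -0.75 over cyFT. Its reads lay in 1 cell of cyAC, 1 cell of cyFT and 21 post-transplant cells. Without the 3 cells with most MMP1 reads in each sample, it was at 3.61 in both comparisons, with no MMP1 read left in cyAC or cyFT.

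**Figure D3:**
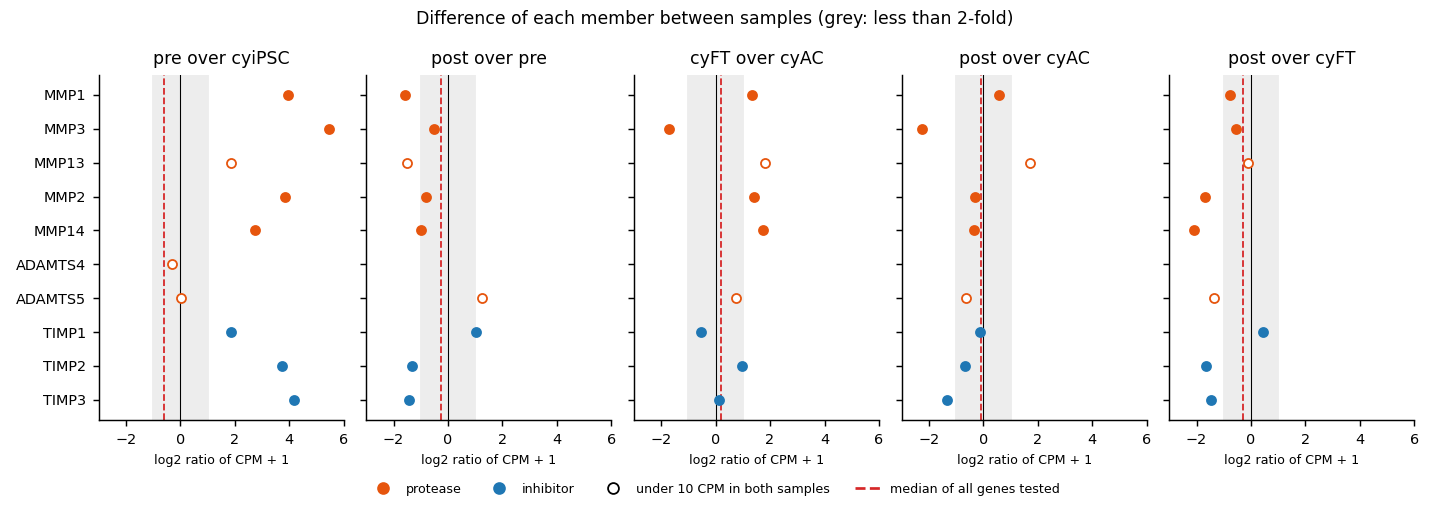
Points give the log2 ratio of CPM + 1 for each member (proteases orange, inhibitors blue) in the 5 comparisons, with open points for members under 10 CPM in both samples, the range under 2-fold in grey and the median of all genes tested as a dashed line. All filled points of pre-transplant cyiPS-Cart over cyiPSC lie to the right of the grey range, and MMP3 and MMP14 lie on opposite sides of it in cyFT over cyAC.

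The balance was taken as the reads of the 7 proteases per read of the 3 inhibitors. Transcript lengths were not used, so both its value and its difference between samples depend on how many reads each gene gives. The ratio was 0.205 [0.202 to 0.208] in cyiPSC and 0.249 [0.2475 to 0.2501] in pre-transplant cyiPS-Cart of the first matrix. In the second matrix it was 0.264 [0.259 to 0.268] in pre-transplant and 0.303 [0.297 to 0.309] in post-transplant cyiPS-Cart, 0.598 [0.588 to 0.609] in cyAC and 0.313 [0.307 to 0.319] in cyFT. cyAC stood apart, at 1.91 times the ratio of cyFT and 1.97 times that of post-transplant cyiPS-Cart.

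MMP3 carried the high ratio of cyAC. It made up 87.1% of the protease reads of cyAC, 62.4% after transplantation, 53.9% before it and 39.6% in cyFT, and MMP14 made up 66.4% of those in cyiPSC. Without MMP3, the log2 difference of cyFT over cyAC turned from -0.94 to 1.29, and that of post-transplant cyiPS-Cart over cyAC from -0.98 to 0.56. From pre-transplant to post-transplant cyiPS-Cart the summed proteases and the summed inhibitors were both lower, at log2 ratios of -0.73 and -0.93, and the balance differed by 0.20. That difference was -0.095 without MMP3, and that of pre-transplant cyiPS-Cart over cyiPSC, at 0.28 with all members, was -0.45 without MMP3. TIMP1 made up 8.44% of the inhibitor reads before and 32.9% after transplantation.

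Cells with more protease than inhibitor reads were 7.19% of pre-transplant, 12.8% of post-transplant, 15.6% of cyAC and 14.1% of cyFT cells, with exact intervals of 4.61% to 10.6%, 9.35% to 17.0%, 11.8% to 20.1% and 10.4% to 18.4%. The interval of pre-transplant cyiPS-Cart overlapped that of post-transplant cyiPS-Cart and met that of cyFT only at its end, and that of cyAC did not reach it. These shares are not fully comparable, since the lowest counts above 0 of MMP3 and TIMP3 differed between libraries. The cells were not thinned to equal depth for them. The reads of MMP2 and MMP14 per read of TIMP2 were 0.389 in cyiPSC, 0.234 before and 0.307 after transplantation, 0.239 in cyAC and 0.384 in cyFT. For MMP1, MMP3 and MMP13 per read of TIMP1, the values were 0.153, 1.91, 0.609, 2.59 and 1.21 in the same order. The collagenase and stromelysin ratio was thus lower after transplantation while the MMP2 and MMP14 ratio was higher.

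**Figure D4:**
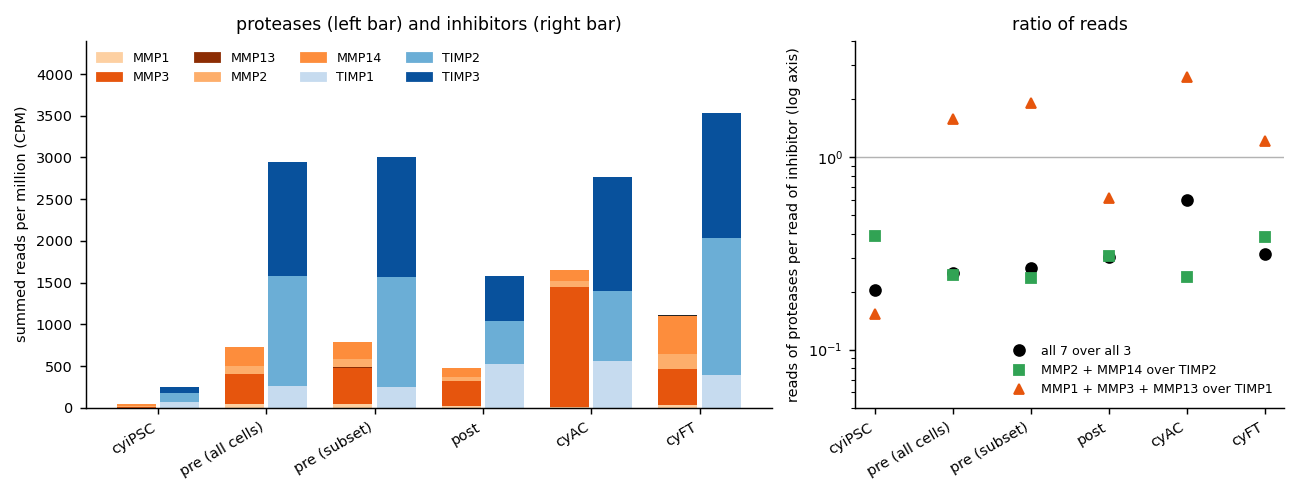
Stacked bars give the summed CPM of the proteases (left bar) and inhibitors (right bar) of each sample, and points give the reads of proteases per read of inhibitor on a log axis. The MMP3 block takes 87.1% of the protease bar of cyAC, where the ratio over all members is highest at 0.598, and the 2 aggrecanases are drawn but too small to see.

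Cells were then split within each sample by their collagen reads, since COL2A1 marks hyaline cartilage and COL1A1 fibrous tissue. In cyFT, 170 cells had COL1A1 and no COL2A1 reads and 84 had COL2A1 and no COL1A1 reads. MMP14 was at 878 CPM [851 to 907] in the COL1A1-only and 112 CPM [102 to 122] in the COL2A1-only cells, and MMP2 at 389 and 33.0 CPM. TIMP2 was at 2409 and 763 CPM. MMP3 went the other way, at 241 CPM in COL1A1-only and 719 CPM in COL2A1-only cells, as did TIMP3 at 1071 and 1498 CPM. TIMP1 was at 451 and 341 CPM. The COL1A1-only cells had a lower median depth (21830 reads) than the COL2A1-only cells (47802.5 reads), and the part of depth was not tested for these levels. The cells of a sample are not replicates, so no test was made.

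The COL2A1-only cells of cyFT and cyAC had like levels of MMP14, 112 CPM in both, and MMP2 was at 33.0 and 46.7 CPM in them. The 16 COL1A1-only cells of cyAC had 520 CPM of MMP14 and 444 CPM of MMP2. The 7 such cells of post-transplant cyiPS-Cart had 568 and 218 CPM, against 92.6 and 39.8 CPM in the 265 COL2A1-only cells. In pre-transplant cyiPS-Cart of the first matrix, 254 COL1A1-only cells had 450 CPM of MMP14, against 187 CPM in 2588 COL2A1-only cells, whereas MMP2 was at 100 and 93.3 CPM. MMP14 was higher in the COL1A1-only cells of all 4 tissues, by 2.41-fold before and 6.13-fold after transplantation, 4.65-fold in cyAC and 7.87-fold in cyFT. MMP2 was higher by 11.8-fold in those of cyFT, 9.50-fold in cyAC and 5.48-fold in post-transplant cyiPS-Cart. The sizes of these folds are not on one footing between libraries, since the collagen classes were cut at unlike counts. TIMP3 was higher in the COL1A1-only cells before (3880 against 851 CPM) and after transplantation (1366 against 470 CPM) and lower in those of cyAC (634 against 1516 CPM). MMP13 before transplantation was at 41.7 CPM in COL1A1-only and 2.67 CPM in COL2A1-only cells.

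**Figure D5:**
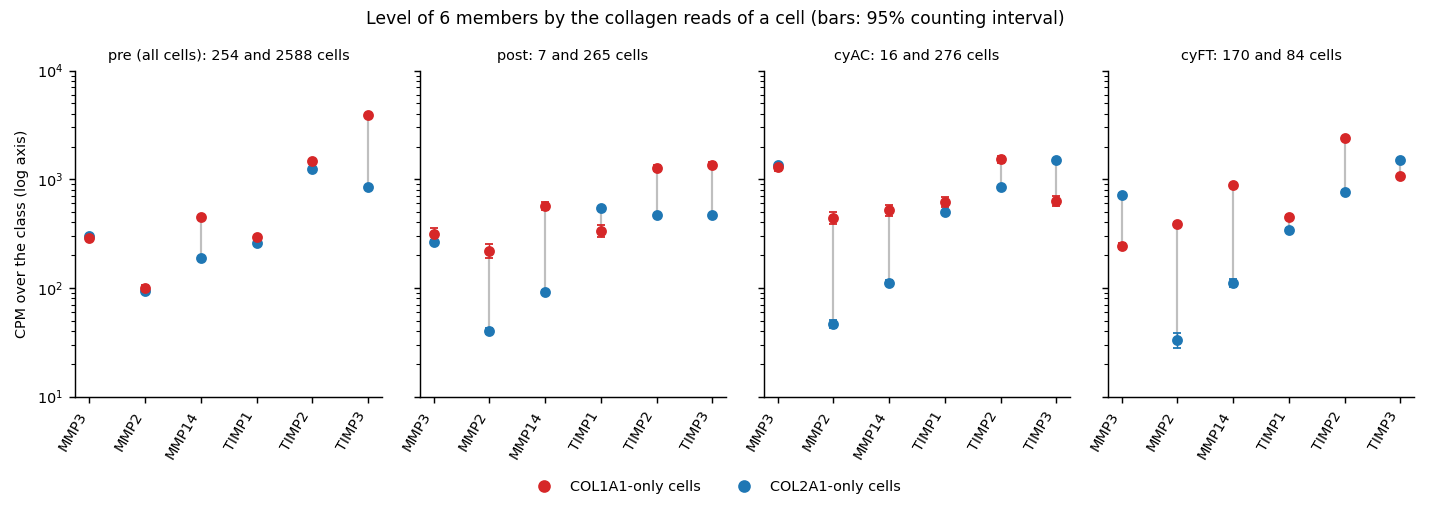
Points give the CPM (log axis) of 6 members summed over the COL1A1-only (red) and COL2A1-only (blue) cells of 4 samples, with 95% counting intervals and the number of cells of each class in the title. MMP14 is higher in the red class of every panel, MMP3 is higher in the blue class of cyFT (719 against 241 CPM), and the red classes of post-transplant cyiPS-Cart and cyAC hold 7 and 16 cells.

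Across the 320 cells of cyFT, MMP2 and MMP14 had a Spearman's rho of 0.40, and MMP14 and TIMP2 of 0.37, which were 0.42 and 0.38 in 288 cells thinned to equal depth. No other pair of members passed 0.25 before thinning, in any sample of the second matrix. The genes most like MMP14 in cyFT were VIM (0.52), the intermediate filament of mesenchymal cells, COL14A1 (0.51), a fibril-associated collagen, and GPNMB (0.51). MMP2 was most like FNDC1 (0.55) and COL14A1 (0.43), and TIMP2 was most like COL14A1 (0.52), CRTAC1 (0.48) and AEBP1 (0.43). In cyAC, TIMP3 was most like CHAD (0.40), which encodes the cartilage protein chondroadherin, and RPS20 (0.40), which encodes a ribosomal protein. In pre-transplant cyiPS-Cart, where the limit of 0.4 was applied only after the values were seen, MMP3 was most like INHBA (0.42), which encodes a subunit of activins and inhibins. These values are descriptions over cells of 1 library each, which share its depth and its split into cell classes.

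Other genes of the same system were described from lists of related proteases, inhibitors, receptors and regulators, whose counts stand beside the share of all genes tested. Pre-transplant cyiPS-Cart over cyiPSC had 3 of 4 tested other MMPs higher and 0 lower, 6 and 1 of 7 other ADAMTS genes, 2 and 2 of 5 ADAMs, 7 and 0 of 8 other inhibitors, 8 and 3 of 11 other matrix proteases, and 8 and 1 of 10 receptors and regulators, where 16.5% of all genes were higher and 37.4% lower. SERPINA3, an inhibitor of serine proteases, was at 6088 CPM before transplantation and 7.04 CPM in cyiPSC, and SERPINA1, which encodes alpha-1 antitrypsin, at 2188 and 2.46 CPM. PLAU, the urokinase that starts plasmin formation, was lower, at 2.62 against 182 CPM, as was ADAMTS19 at 1.34 against 52.3 CPM.

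Post-transplant over pre-transplant cyiPS-Cart had 0 of 4 other MMPs higher and 2 lower, 0 and 0 of 5 other ADAMTS genes, 1 and 2 of 5 ADAMs, 1 and 5 of 8 other inhibitors, 1 and 2 of 8 other matrix proteases, and 3 and 3 of 10 receptors and regulators, against 8.92% and 18.5% of all genes. FOS and JUN, subunits of the AP-1 factor that acts on MMP promoters, were at 5742 and 1587 CPM after and 623 and 242 CPM before transplantation. PZP, a broad protease inhibitor of the alpha-2-macroglobulin family, was lower at 0.636 against 105 CPM, and PLAUR, the urokinase receptor, at 13.3 against 192 CPM.

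cyFT over cyAC had 1 of 3 other MMPs higher and 2 lower, 4 and 1 of 6 other ADAMTS genes, 3 and 0 of 5 ADAMs, 2 and 0 of 7 other inhibitors, 4 and 1 of 11 other matrix proteases, and 3 and 2 of 13 receptors and regulators, against 12.2% and 3.92% of all genes. IL1B, a cytokine that induces MMPs in chondrocytes, was at 118 CPM in cyFT and 0.507 CPM in cyAC, in 3.13% of cyFT cells. CTSS, a lysosomal protease of antigen-presenting cells, was at 82.7 and 7.53 CPM. The immune markers listed above were also higher in cyFT, and their part in these 2 genes was not tested. PLAT, the tissue plasminogen activator, was lower at 17.4 against 125 CPM, and SDC4, a heparan sulfate proteoglycan of the cell surface, at 210 against 607 CPM.

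Post-transplant cyiPS-Cart over cyAC had 0 of 2 other MMPs higher and 1 lower, 2 and 1 of 5 other ADAMTS genes, 1 and 2 of 5 ADAMs, 2 and 5 of 7 other inhibitors, 2 and 2 of 9 other matrix proteases, and 2 and 7 of 12 receptors and regulators, against 10.7% and 15.8% of all genes. FOS and JUN were at 754 and 247 CPM in cyAC, and PZP and PLAT, at 64.9 and 125 CPM there, were at 0.636 and 6.03 CPM after transplantation. Post-transplant cyiPS-Cart over cyFT had 1 of 3 other MMPs higher and 1 lower, 0 and 2 of 6 other ADAMTS genes, 1 and 3 of 6 ADAMs, 2 and 4 of 7 other inhibitors, 1 and 5 of 11 other matrix proteases, and 2 and 9 of 13 receptors and regulators, against 6.65% and 21.8% of all genes.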

How the data were processed

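The deposited values are read counts for each gene in each cell. cDNA reads were assigned to Ensembl transcripts of Macaca_fascicularis_6.0 with Bowtie2 (the submitters' notes name Bowtie2 2.4.2, cutadapt 3.4 and R 3.6.3), cells were kept where their total lay past the knee plot's inflection, and pooled samples were separated by hashtag. In genes with high maxima, counts taken for diffused RNA were set to 0, so the lowest count above 0 differs between libraries and shares of cells are not fully comparable. Counts are reads and not molecules, since no step that counts molecular identifiers is described. Hashtag reads (3 libraries) were left out.

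Prefixes of cell names gave each cell's sample, read through the labels and the authors' code. Reads were summed per sample, scaled to CPM and compared as log2(CPM + 1) with Python 3.11.15, numpy 2.4.6 and scipy 1.17.1. Shares have exact Clopper-Pearson 95% intervals and ratios exact conditional ones, and intervals cover counting error only. For equal depth, cells were thinned to 30967 reads (the first matrix, leaving out 60 cyiPSC and 353 pre-transplant cells) or 12191 reads (the second, leaving out 12 cyAC, 32 cyFT and 1 pre-transplant cell). Doublets were marked with scrublet as run by scanpy 1.11.5 and kept. It marked 14 cyiPSC, 10 post-transplant, 4 cyAC and 3 cyFT cells. It marked 0 pre-transplant cells and is not taken to have worked there. edgeR 4.0.16 (TMM) and DESeq2 1.42.0 (size factors) were used for scaling alternatives only. No test was run, since each condition was 1 sample. The ratio and thinning steps were tested on simulated data.

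Among members, all 10 are described. The genes most like a member are those with a rho of at least 0.4 in cyFT or cyAC, up to 3 per member, among genes detected in 25% of cells. From the other lists, the 2 called genes with the greatest difference in either direction are named, except for 1 that is not reported here. The members, lists and rules were chosen with earlier results of these data known. Names were matched to a RefSeq table of another build, which holds all 10 members and 13303 of the 14020 genes of the second matrix. That table gave names, gene order and overlaps of gene models, and no coordinates are printed.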

Additional observations from a re-analysis of the deposited data

How the results depend on the processing

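Of 21 calls past 2-fold, each of 1 member in 1 comparison, 18 stayed past it under all 9 to 11 alternatives, and none changed direction. MMP1 of cyFT over cyAC was at 0.90 by the mean of per-cell CPM and had no reads without its top cells. No paired analysis was possible because each condition was 1 sample. TMM moved the log2 ratio of CPM by 0.67 (pre-transplant over cyiPSC), 0.22, -0.18, 0.12 and 0.30 in the order of the report, and that of CPM + 1 by less in genes of low level. For post-transplant over pre-transplant, the count of members higher went from 1 to 0 without mitochondrial genes, with the larger pre-transplant set or at 4-fold, and to 2 with a 1 CPM filter or none. The count lower went from 3 to 5 by the mean of per-cell CPM, with the stricter cell filter or at 1.5-fold, to 4 without mitochondrial genes or doublets, with the larger set or with a 1 CPM filter or none, to 2 with a 50 CPM filter and to 0 at 4-fold. At 4-fold, cyFT over cyAC had 0 higher and 0 lower, and post-transplant cyiPS-Cart had 1 lower than cyAC and 1 lower than cyFT. Post-transplant over cyAC had 1 higher at 1.5-fold, with a 1 CPM filter or none, or without the 3 cells with most reads of a member, and over cyFT 1 higher without those cells. Without those cells the member called higher was MMP1 in both comparisons.

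The log2 difference in balance was 0.28 for pre-transplant over cyiPSC. It was 0.035 by the mean of per-cell CPM, 0.34 with the stricter cell filter, 0.25 without marked doublets, -0.076 without TIMP1, -0.45 without MMP3 and 0.65 without TIMP3. For post-transplant over pre-transplant it was 0.20, and 0.16 with the stricter filter or without doublets, 0.30 without the 3 top cells, 0.29 with the larger pre-transplant set, 0.65 without TIMP1, -0.095 without MMP3 and -0.14 without TIMP3. For cyFT over cyAC it was -0.94, and -1.21 by the mean of per-cell CPM, -0.76 with the stricter filter, -0.72 without the 3 top cells, -0.98 without cells with immune markers, -1.09 without TIMP1, 1.29 without MMP3 and -1.12 without the inhibitor with the most reads. For post-transplant over cyAC it was -0.98, and -1.31 by the mean of per-cell CPM, -0.84 with the stricter filter, -1.04 without doublets, -0.80 without the 3 top cells, -0.73 without TIMP1, 0.56 without MMP3 and -1.36 without the inhibitor with the most reads. For post-transplant over cyFT it was -0.046, and -0.096 by the mean of per-cell CPM, 0.36 without TIMP1, -0.73 without MMP3 and -0.37 without the inhibitor with the most reads. Leaving out MMP3, TIMP1 or TIMP3 changes the sums by construction, and each turned the direction of at least 1 difference. The alternatives without immune-marker cells were added after the data were seen.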

Other observations

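Cells were also split by PRG4, which encodes lubricin, the lubricating proteoglycan of the joint surface. In pre-transplant cyiPS-Cart of the first matrix, 610 cells with PRG4 reads had 70.1 CPM of MMP1, 3.66 CPM of MMP13 and 914 CPM of TIMP3, against 40.8, 9.31 and 1460 CPM in 2917 cells without. Cells with PRG4 reads were 17.3% of these cells and 0.2% of cyiPSC, in a library where the lowest PRG4 count above 0 was 22 reads. Median depths were 62099 reads with and 58702 reads without PRG4. The other tissues are not split here, since PRG4 counts went down to 1 read there.

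TIMP3 in cyFT was highest in the 33 cells with neither COL1A1 nor COL2A1 reads, at 4217 CPM [4098 to 4338], and 51.5% of these cells had TIMP3 reads. The 16 cyFT cells with immune markers had 16.5 CPM of TIMP3, in 1 cell, and 446 CPM of MMP14, in 14 cells.

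In the tenth of cyAC cells with the most MMP3 per read (13455 CPM), TIMP1 was at 632 CPM, TIMP3 at 1001 CPM and MMP14 at 121 CPM, against 553, 1399 and 135 CPM in the rest.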
